A study of Mus musculus with 12 samples.

Results

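Chemokines are small secreted proteins that steer cell migration, and chemokine receptors are the seven-pass membrane proteins that read them. The genes described here were the rows of the expression table whose symbols belong to the Ccl, Cxcl, Xcl, Ccr, Cxcr and Xcr series, together with Cx3cl1, Ccrl2 and Ackr1 to Ackr4. There were 57 such genes among 20788, of which 35 encode ligands and 22 encode receptors, a rule that reads symbols and no measured value. They were measured by RNA-seq in testes of male F1 ICR mice (the labels write "IRC mouse"), which were 8 weeks old. Each of 4 groups had 3 libraries, 12 in all. As the study describes it, the F1 mice were the offspring of untreated ICR females and of males whose testes had been injected with lentivirus, a vector that inserts its cargo into the genome. The fathers of the knockdown group had received hairpin RNAs against lncRNA5251, a long non-coding RNA, in the LV3 vector, and the fathers of its control group, 3NC, the LV3 control virus. The fathers of the overexpression group had received lncRNA5251 in the LV5 vector, and those of its control group, 5NC, the LV5 control virus. All 4 groups thus descend from injected males, no group without virus was among them, and the series' design text instead says that the F1 testes themselves received the virus. No row of the table is named lncRNA5251, and its level was not analysed here. Whether a group's 3 libraries are 3 animals is not stated in the labels. The p-values therefore reflect only how far these libraries spread, and that spread may be technical.

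Chemokines are sorted by the spacing of their first cysteines into CC, CXC, XC and CX3C families, and most act through G-protein-coupled receptors of the matching family. Inflammatory chemokines are made on demand and draw monocytes, neutrophils or activated T cells into tissue, whereas homeostatic ones are made constantly and place cells within a tissue. Atypical receptors bind chemokines without classical G-protein signalling and remove them from the surroundings. In the testis the germ cells lie behind the blood-testis barrier, the resident leukocytes of the interstitium are mainly macrophages, and Cxcl12 from Sertoli cells, read by Cxcr4, helps to hold spermatogonial stem cells in their niche.

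Promoter sequence was taken from RefSeq (GRCm38.p6), whose table held 44 of the 57 genes, as windows from 250 bases before to 50 bases after the transcript start. Ccl28 is shown because it was the only one of these genes to pass the test, and Cxcl10 because it had the largest fitted decrease in the overexpression group among those with non-overlapping groups. Both are printed from the far end to the transcript, on the strand of the gene. Capitals mark matches on either strand to an interferon response element (ISRE, searched as GAAANNGAAA) and to the NF-kB consensus. The TATA box (TATAAA) was searched as well, on the strand of the gene.
Ccl28, chr13:119623569-119623868, plus strand: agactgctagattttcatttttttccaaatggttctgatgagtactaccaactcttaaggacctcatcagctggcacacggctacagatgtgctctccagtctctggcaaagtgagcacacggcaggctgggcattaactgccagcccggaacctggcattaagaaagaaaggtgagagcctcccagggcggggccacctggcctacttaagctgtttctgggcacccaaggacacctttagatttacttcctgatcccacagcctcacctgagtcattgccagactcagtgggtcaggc
Cxcl10, chr5:92348840-92349139, minus strand: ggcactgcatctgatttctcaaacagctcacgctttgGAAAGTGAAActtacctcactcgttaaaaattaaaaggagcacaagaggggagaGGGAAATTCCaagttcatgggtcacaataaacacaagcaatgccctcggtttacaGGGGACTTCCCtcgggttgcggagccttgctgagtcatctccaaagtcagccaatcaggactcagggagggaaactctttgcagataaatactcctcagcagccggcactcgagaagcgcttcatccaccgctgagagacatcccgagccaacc
The Cxcl10 window held the ISRE letters from -213 to -204 and NF-kB letters from -159 to -150, from -104 to -95 and from -103 to -94, the last pair overlapping by all but 1 base at each end. The Ccl28 window held none of the 3 motifs. Over all 32851 promoter windows, 3.44% held the ISRE letters, 8.46% the NF-kB letters and 8.32% the TATA box. Over the 53 windows of the chemokine and receptor genes these shares were 3.77%, 24.5% and 22.6%. These matches describe letters and not bound sites.

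Depth was 12719699 to 15771655 estimated reads per library. Of the 57 genes, 37 (23 ligands and 14 receptors) passed the filter on low counts and were tested, and 20 were not. CPM are counts relative to library size, corrected by TMM (a scaling that sets aside the genes with the most extreme ratios between libraries), and are used here within a gene, while FPKM, which also divides by transcript length, is used between genes. The markers of spermatids, the late germ cells of the testis, summed to 9269 to 12708 CPM, so all 12 libraries carried the labelled tissue's defining genes. A pair of libraries, 3NC replicate 2 and knockdown replicate 1, stood apart. They had the lowest spermatid sums of the 12, at 9269 and 9416 CPM against 9863 to 12708 CPM elsewhere. All 6 of 6 pan-leukocyte markers in 3NC replicate 2 and 5 of 6 in knockdown replicate 1 were above every one of the other 10 libraries. Their summed level was 410.4 and 324 CPM, against 19.2 to 62.8 CPM elsewhere. Macrophage markers summed to 286 and 473 CPM against 87.9 to 111, T cell markers to 83.8 and 63.5 CPM against 9.28 to 18.1, and cytotoxic lymphocyte markers to 194 and 58.2 CPM against 0.374 to 3.52. B and plasma cell markers instead separated a group, at 111, 22.4 and 12.2 CPM in the knockdown group against 2.94 to 8.37 CPM in the other 9 libraries, 3NC replicate 2 (7.58 CPM) among them. In the knockdown against 3NC comparison 2 of the 3 of these markers that were tested, Jchain and Mzb1, had an unadjusted p under 0.05, against 5.64% of all genes, and none passed (smallest adjusted p = 0.747 by edgeR). Neutrophil markers summed to 28.6 and 19.1 CPM against 1.57 to 15.8. Dendritic cell, endothelial, Sertoli, Leydig and peritubular myoid sums moved less, and none of the marker genes was at 0 in all libraries. In bulk tissue, more cells of a type and more RNA per cell cannot be told apart.

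**Figure D1:**
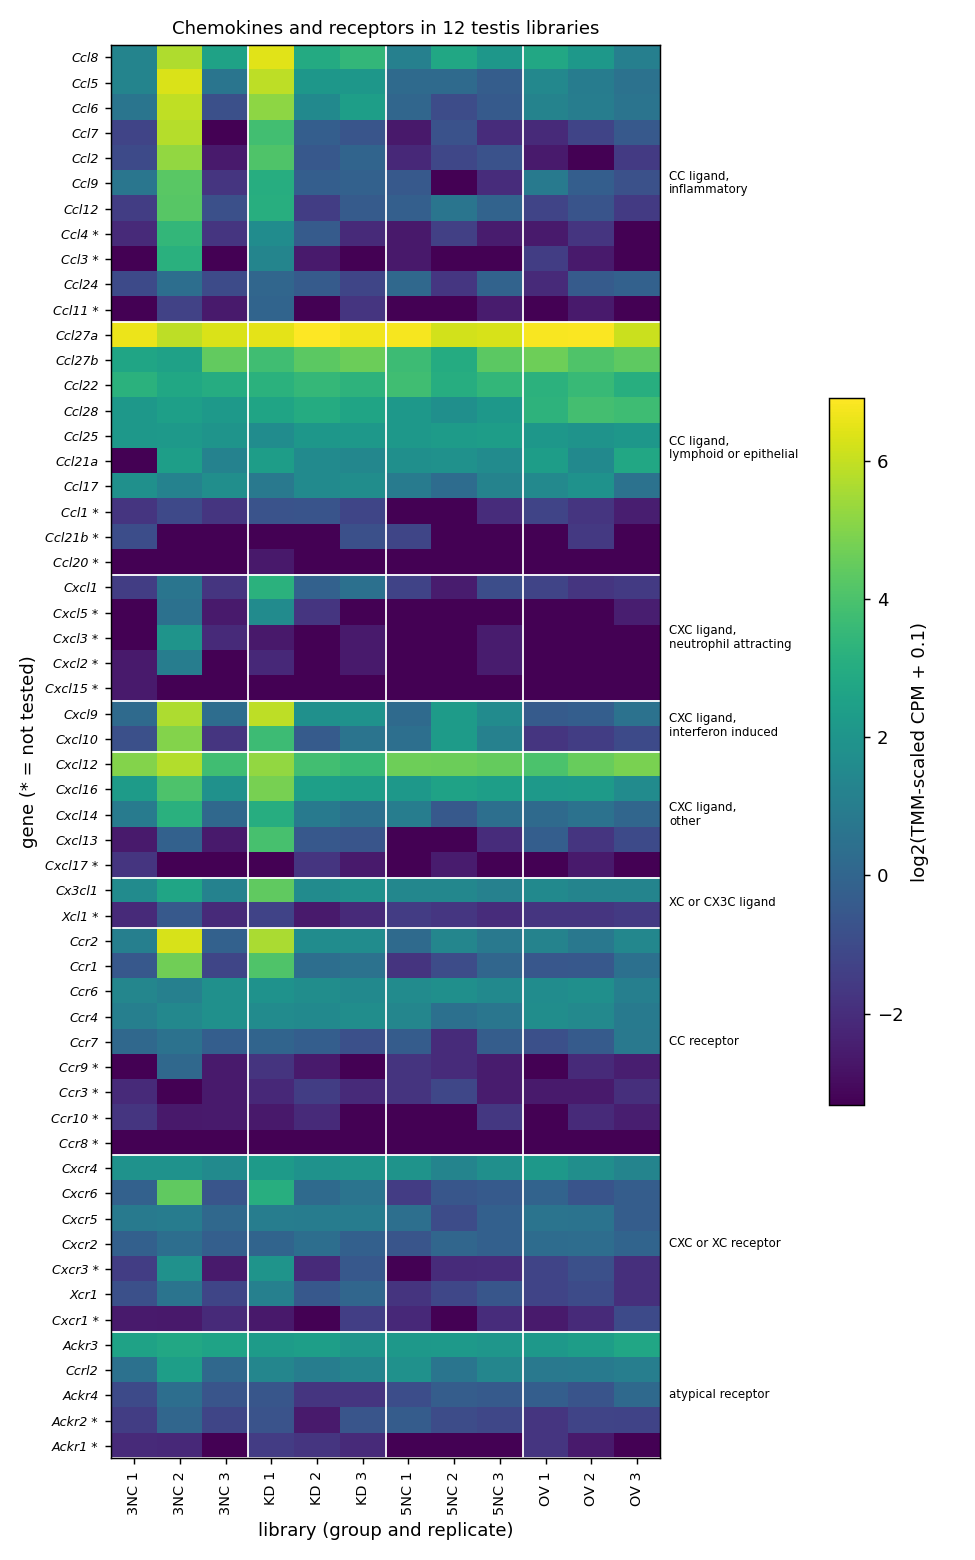
The heat map gives log2(TMM-scaled CPM + 0.1) of 56 of the 57 genes (rows, ordered by class and mean level, an asterisk marking the 20 that were not tested) in the 12 libraries (columns, KD and OV standing for the knockdown and overexpression groups). The bright columns are 3NC replicate 2 and knockdown replicate 1, most evident among inflammatory CC ligands, Cxcl9, Cxcl10, Ccr1 and Ccr2, and Ccl27a is bright in every library.

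By mean FPKM over the 12 libraries the most abundant transcript was that of Ccl27a, a CC chemokine best known from skin epithelium that binds Ccr10 (chr4:41769467-41774225, RefSeq GRCm38.p6). Its FPKM was 187, 122 and 147 in 3NC, 177, 222 and 193 in the knockdown group, 209, 143 and 152 in 5NC and 207, 216 and 134 in the overexpression group. The groups overlapped, and no comparison passed, with log2 fold changes of 0.40 (SE 0.23, adjusted p = 0.764) for knockdown against 3NC and 0.18 (SE 0.23, adjusted p = 0.832) for overexpression against 5NC by edgeR's quasi-likelihood test. Throughout, a positive log2 fold change means a higher level in the group named first, and p-values were adjusted over all 16388 genes tested by the Benjamini-Hochberg method. Ccl27a was the highest of the 57 genes in 10 libraries, where it made up 55.4% to 70.2% of their summed FPKM. In 3NC replicate 2 it came after Ccl5 and Ccl8 and in knockdown replicate 1 after Ccl8, with 12.1% and 19.6% of the summed FPKM. Ccl27b, a near-identical copy on the same chromosome, was at 12.5, 3.67 and 44.8 FPKM in 3NC, 27.6, 27.9 and 47 in the knockdown group, 25.8, 8.73 and 35 in 5NC and 41.9, 21.3 and 37.1 in the overexpression group. Its spread within groups was wide, and its log2 fold changes were 0.78 (SE 0.48, adjusted p = 0.764) in the knockdown comparison and 0.63 (SE 0.48, adjusted p = 0.67) in the overexpression comparison. The sources used here do not say how reads were shared between the copies, so the split between Ccl27a and Ccl27b is uncertain, as it is for Ccl21a and Ccl21b.

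After Ccl27a, the highest mean FPKM over the 12 libraries belonged to Ccl8 (44.4), Ccl5 (35.2), Ccl27b (27.8), Cxcl12 (11.1), Ccl7 (9.44), Ccl2 (7.66) and Ccl6 (7.56). The order by the median library was different, with Ccl27b at 27.7, Ccl8 at 16.4, Cxcl12 at 10.6, Ccl22 at 5.55 and Ccl5 at 5.28, while Ccl6, Ccl7 and Ccl2 were at 1.28, 0.625 and 0.565. Ccl2, Ccl6 and Ccl7 were thus far lower in the median library than in the mean, which holds the high values of 3NC replicate 2 and knockdown replicate 1.

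Of the 37 tested genes, 20 (54.1%) were above all other 10 libraries in both 3NC replicate 2 and knockdown replicate 1, against 13.9% of all genes tested, and 10 (27%) were more than 5 times the highest of the other 10 in both, against 0.982%. These shares lean on the filter on low counts, since 4 of the 20 (Ccl2, Ccl7, Cxcl13 and Xcr1) did not pass it when both libraries were left out. With no filter, 28 of all 57 genes (49.1%) were above the other 10 libraries in both, against 12.5% of 20788 genes, and 13 (22.8%) were more than 5 times the highest, against 1.21%. The 11 inflammatory CC ligands summed to 344 CPM in 3NC replicate 2 and 237 CPM in knockdown replicate 1, against 6.8 to 23.8 CPM elsewhere. Not each of them was high in both, Ccl24 being at 0.948 CPM in knockdown replicate 1 and 0.998 CPM in 5NC replicate 1, and the 20 genes also held Cxcl12, Cxcl14 and Xcr1, which are outside the inflammatory group. The 10 CC receptors summed to 164 and 130.3 CPM against 8.61 to 14.2. The 10 CC ligands of lymphoid or epithelial tissue were not raised, at 88.9 and 129 CPM against 102 to 169.6, and atypical receptors summed to 14.4 and 8.6 CPM against 7.04 to 9.92.

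The genes of Ccl2, Ccl7 and Ccl12, which attract monocytes, and of Ccl8 lie in 1 cluster on chromosome 11, between 82035577 (the start of Ccl2) and 82116799 (the end of Ccl8). Ccl2 was at 0.397, 38.2 and 0.0675 CPM in 3NC, 16.9, 0.598 and 0.878 in the knockdown group, 0.125, 0.352 and 0.501 in 5NC and 0.0658, 0 and 0.238 in the overexpression group. Ccl7 was at 0.331, 53.8 and 0 CPM in 3NC, 13.8, 0.731 and 0.54 in the knockdown group, 0.0624, 0.492 and 0.143 in 5NC and 0.132, 0.333 and 0.635 in the overexpression group. Both were thus below 1 CPM in 10 libraries and far above it in 3NC replicate 2 and knockdown replicate 1. Ccl8 had a higher floor, with 2.38, 52.1 and 5.81 CPM in 3NC, 88.5, 7.44 and 10.9 in the knockdown group, 2.12, 6.82 and 4.22 in 5NC and 6.97, 4.33 and 2.06 in the overexpression group. Ccl12 reached 19 and 8.34 CPM against 0.238 to 1.48 elsewhere. Ccr2, the receptor of Ccl2, Ccl7 and Ccl12, which monocytes use to leave bone marrow and enter tissue, was at 2.05, 77.8 and 0.81 CPM in 3NC, 49.4, 3.06 and 3.04 in the knockdown group, 1.06, 2.46 and 1.65 in 5NC and 2.3, 1.6 and 2.54 in the overexpression group.

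Ccl5, made by T cells and macrophages and read by Ccr1 among other receptors, was at 2.38, 79.9 and 1.49 CPM in 3NC, 58.5, 4.19 and 4.12 in the knockdown group, 1.06, 1.06 and 0.716 in 5NC and 2.63, 1.86 and 1.35 in the overexpression group. Ccl6, a myeloid chemokine that acts on Ccr1, was at 1.46, 60.3 and 0.473 CPM in 3NC, 35.6, 2.79 and 5.2 in the knockdown group, 0.936, 0.422 and 0.644 in 5NC and 2.3, 1.93 and 1.43 in the overexpression group. Their receptor had the same pair of high libraries. Ccr1 was at 0.596, 25.7 and 0.338 CPM in 3NC, 16.9, 1.2 and 1.35 in the knockdown group, 0.187, 0.422 and 0.93 in 5NC and 0.592, 0.599 and 1.27 in the overexpression group. Relative to the median of the other 10 libraries, 3NC replicate 2 was 43.1 times as high in Ccr1 and 35.7 times as high in Ccr2, and knockdown replicate 1 was 28.4 and 22.7 times as high.

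Cxcl9 and Cxcl10 are induced by interferon and recruit activated T cells through Cxcr3. Cxcl9 was at 1.06, 49.7 and 1.15 CPM in 3NC, 59, 3.46 and 3.58 in the knockdown group, 1.06, 4.85 and 2.93 in 5NC and 0.658, 0.733 and 1.35 in the overexpression group. Cxcl10 was at 0.463, 32.3 and 0.203 CPM in 3NC, 12.8, 0.665 and 1.42 in the knockdown group, 1.25, 4.78 and 2.15 in 5NC and 0.197, 0.266 and 0.397 in the overexpression group. Cxcr3 itself was not tested because too few libraries reached the filter's level, but its 3.48 and 3.86 CPM in the same libraries stood above the 0 to 0.608 CPM of the others. The pair Cxcl16 and Cxcr6, a membrane-bound ligand and its T cell receptor, reached 16.5 and 28 CPM and 21.1 and 8.47 CPM, against 3.0 to 5.86 and 0.25 to 1.42 CPM. Cxcl16 overlaps Zmynd15 (136 to 212 CPM) and Cxcr6 lies within Fyco1 (139 to 173 CPM), and with the strand setting of the counting not given, reads of overlapping genes cannot be told apart. Ccl9, a relative of Ccl6, reached 19.3 and 8.14 CPM against 0 to 1.71. Cxcl14, made by many epithelia and fibroblasts, reached 8.95 and 8.09 CPM against 0.633 to 1.93, and Xcr1, the receptor of cross-presenting dendritic cells, 1.43 and 2.09 CPM against 0.159 to 0.945.

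The libraries that stood apart also differed from each other. With a 95% counting interval on the ratio of knockdown replicate 1 to 3NC replicate 2, which covers counting error only, 10 of the 37 tested genes (27%) were higher in knockdown replicate 1, against 23.6% of all genes tested, and 13 (35.1%) were higher in 3NC replicate 2, against 21.2%. For the other 14 the interval held 1. Such differences were thus common among all genes, and the counts are a description of these libraries. Cxcl13, which guides B cells into follicles through Cxcr5, had a ratio of 18.6 (10.7 to 35.5), and was at 0.0662, 0.808 and 0.0675 CPM in 3NC, 15, 0.598 and 0.54 in the knockdown group, 0, 0 and 0.143 in 5NC and 0.723, 0.20 and 0.397 in the overexpression group. Cxcl1, a neutrophil attractant that acts on Cxcr2, had a ratio of 6.19 (4.0 to 9.97), and was at 0.265, 1.49 and 0.203 CPM in 3NC, 9.23, 0.798 and 1.28 in the knockdown group, 0.312, 0.0704 and 0.429 in 5NC and 0.329, 0.20 and 0.238 in the overexpression group. Cx3cl1, a chemokine on a membrane stalk that also tethers leukocytes, had a ratio of 3.32 (2.65 to 4.18), and was at 2.98, 6.4 and 2.23 CPM in 3NC, 21.2, 2.99 and 3.44 in the knockdown group, 2.56, 2.6 and 2.15 in 5NC and 2.76, 2.33 and 2.38 in the overexpression group. Ccl8 and Cxcl16 had ratios of 1.7 (1.56 to 1.85) and 1.69 (1.45 to 1.98). On the other side, the ratios were 0.256 (0.22 to 0.297) for Ccl7, 0.396 (0.335 to 0.467) for Cxcl10, 0.402 (0.327 to 0.493) for Cxcr6, 0.44 (0.356 to 0.542) for Ccl12 and 0.444 (0.383 to 0.513) for Ccl2. These values compare 2 libraries and not the groups they are labelled with.

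**Figure D2:**
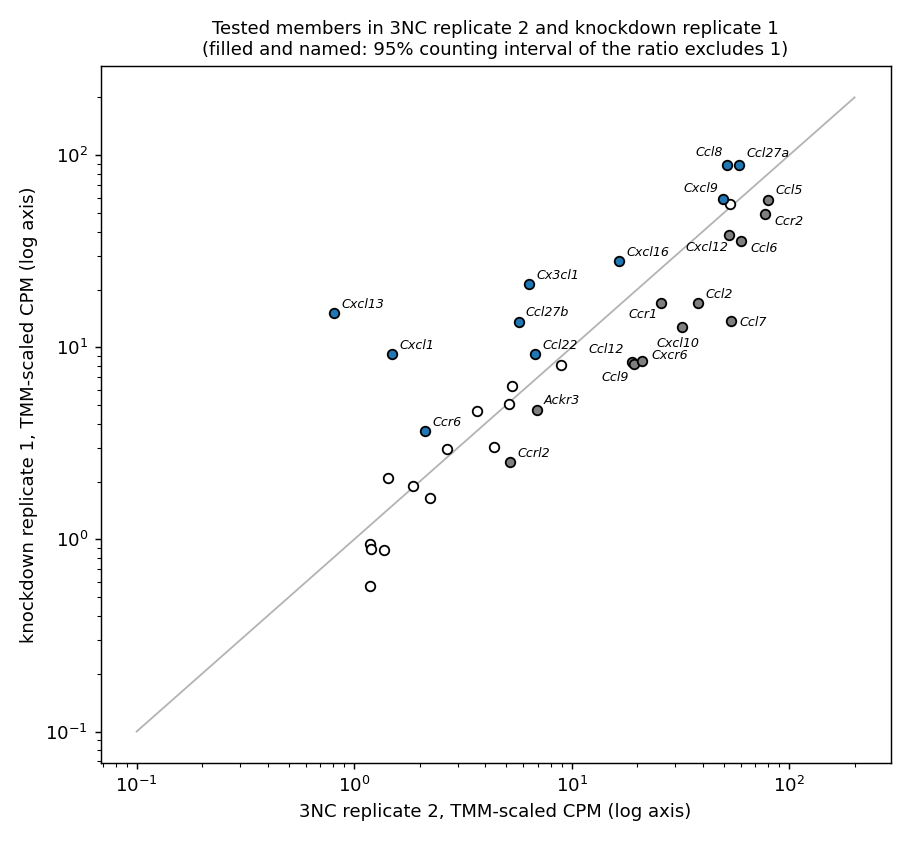
Each point is 1 of the 37 tested genes, with its TMM-scaled CPM in 3NC replicate 2 (x) and knockdown replicate 1 (y), both on log axes, and the grey line marks equal levels. Blue points are the 10 genes higher in knockdown replicate 1 and grey points the 13 higher in 3NC replicate 2 by the 95% counting interval, which called 23.6% and 21.2% of all genes in these directions. Cxcl13 and Cxcl1 lie farthest above the line and Ccl7 farthest below it.

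The comparison of the overexpression group with 5NC asked which genes differed between offspring of the LV5 overexpression lineage and of its vector control. Ccl28 rose in the overexpression group and was the only chemokine or receptor gene to pass, 1 of 37 tested, where 0.311% of all 16388 genes passed, 0.207% with a higher level. Ccl28 (gene ID 56838, chr13:119623819-119654359) is made by epithelia of mucosal surfaces and glands and draws antibody-secreting cells through Ccr10 and Ccr3. It was at 4.24, 3.31 and 4.29 CPM in 5NC, 9.8, 14.5 and 13.3 in the overexpression group, 4.24, 5.34 and 4.46 in 3NC and 6.26, 7.84 and 6.28 in the knockdown group. All 3 overexpression libraries were above the other 9 libraries, a position that none of the other 36 tested genes had and that 0.348% of all genes had. The mean was 12.5 ± 2.46 CPM against 3.95 ± 0.556 CPM in 5NC (SD, n = 3 each), and the log2 fold change was 1.67 (SE 0.20), a fold of 3.17, with an adjusted p of 0.00537 by edgeR's quasi-likelihood test. It rested on 149 to 218 reads per overexpression library and 47 to 68 per 5NC library. Over the 19 alternative fits the log2 fold change ranged from 1.55 to 1.82 and the adjusted p from 2.86e-09 to 0.0593, passing in 18. The exception was the fit without 5NC replicate 2, with 1.55 and an adjusted p of 0.0593.

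The summed pan-leukocyte markers were at 21, 62.8 and 40.6 CPM in 5NC and 27.9, 24.4 and 19.2 in the overexpression group. The spread within 5NC came from 1 marker, Cd52, which was at 2.62, 44 and 19.5 CPM in 5NC and 2.43, 1.53 and 1.11 in the overexpression group, groups that did not overlap. The other 5 markers, summed apart after these values were seen, were at 18.4, 18.8 and 21.1 CPM in 5NC and 25.4, 22.9 and 18.1 in the overexpression group, which overlapped. Macrophage markers were at 96.8, 108 and 108 and 111, 107 and 105 CPM. Of the 3 tested epididymis markers, Spint3 passed with a lower level in the overexpression group (adjusted p = 0.0206 by edgeR), and the list of 5 summed to 11.3, 250.0 and 104 CPM in 5NC and 0.263, 0.40 and 0.476 in the overexpression group. It summed to 34.9, 65 and 28.1 CPM in 3NC and 14.3, 0.332 and 1.15 in the knockdown group. In 3NC and 5NC these sums were mostly Crisp1, which was at 9.86, 239 and 98.4 CPM in 5NC. Crisp1 was at 0.197, 0.133 and 0.0793 CPM in the overexpression group. Gpx5 and Lcn5, also on the list, reached at most 0.135 and 0.132 CPM. The part of the leukocyte and epididymis markers in the Ccl28 result was not tested. Of the receptors of Ccl28, Ccr10 had 14 reads and Ccr3 had 24 reads over all 12 libraries, so neither was tested. None of the 9 tested genes within 500 kb of Ccl28 passed in the same comparison, the smallest adjusted p being 0.391.

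**Figure D3:**
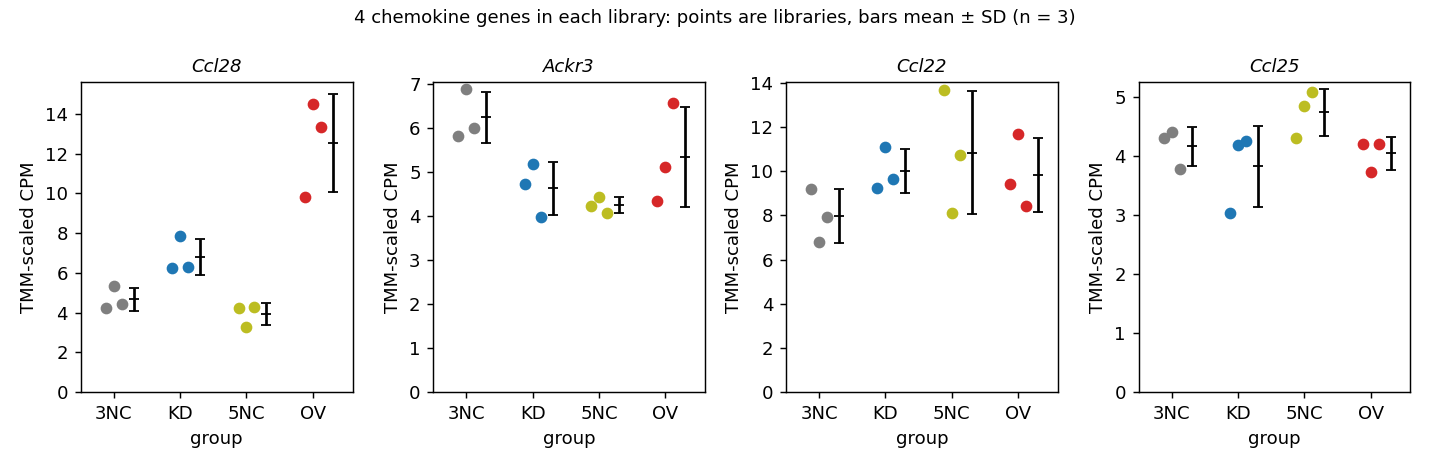
TMM-scaled CPM (y, from 0) of Ccl28, Ackr3, Ccl22 and Ccl25 by group (x, KD and OV standing for the knockdown and overexpression groups), with 1 point per library and the mean ± SD of 3 libraries beside it. Ccl28 sits between 9.80 and 14.5 CPM in the overexpression libraries and at 7.84 CPM or less in the other 9, while Ackr3 stays between 3.98 and 6.90 CPM in all 12.

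Besides Ccl28, 6 of the 37 genes had overexpression and 5NC libraries that did not overlap, 7 in all (18.9%), against 21.3% of all genes tested. Ccl5, Ccl6 and Cxcl13 were higher in all overexpression libraries, and Ccl12, Ccl25 and Cxcl10 lower. None of these 6 passed. Cxcl10, with 20, 68 and 30 reads in 5NC and 3, 4 and 5 in the overexpression group, had a log2 fold change of -3.23 (SE 1.85, adjusted p = 0.532). In a fit without 3NC replicate 2 and knockdown replicate 1, which enter the shared estimate of the spread, it was -3.23 (SE 0.61, adjusted p = 0.0388), and 2 of the 33 genes then tested passed, Ccl28 and Cxcl10, against 0.968% of all genes. With an unadjusted p under 0.05 there were 6 in that fit, against 16.5%, and 1 (2.7%) in the fit of all libraries, against 11.9%. The interferon-induced partner Cxcl9 had -1.70 (SE 1.68, adjusted p = 0.767) in the fit of all libraries and -1.70 (SE 0.49, adjusted p = 0.12) in that fit. Within 5NC, the order of the libraries in Cxcl10 (lowest in replicate 1, highest in replicate 2) was also their order in Cd52 and in the summed epididymis markers. That sum was mostly Crisp1, and the part of these markers in the result was not tested. The other 5 pan-leukocyte markers were not in that order, being highest in replicate 3. Cxcl10 lies within the bounds of Art3, so the same limit on overlapping genes applies. Art3 was at 183 to 264 CPM over the 12 libraries.

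Ccl6 had a log2 fold change of 1.48 (SE 1.69, adjusted p = 0.804) between the overexpression group and 5NC and Ccl5 one of 1.04 (SE 1.68, adjusted p = 0.877), on levels of 2.63 CPM or less in these groups. Cxcl13 was at 2 reads over the 5NC libraries and 19 over the overexpression libraries. Ccl25, which attracts developing T cells and gut lymphocytes through Ccr9, was at 4.3, 4.85 and 5.08 CPM in 5NC, 4.21, 3.73 and 4.2 in the overexpression group, 4.3, 4.41 and 3.78 in 3NC and 3.03, 4.19 and 4.25 in the knockdown group. The log2 fold change against 5NC was -0.23 (SE 0.18, adjusted p = 0.687). The median log2 fold change was 0.18 over the 37 genes, of which 22 were above 0 and 15 below, and -0.01 over all genes tested.

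The comparison of the knockdown group with 3NC asked the same of the LV3 lineages. By edgeR, 0 of the 37 genes passed, as did 0% of all 16388 genes. DESeq2 and limma voom with sample quality weights called 0 of the 37 as well, and 0.0976% and 0% of all genes. With an unadjusted p under 0.05 as the limit there were 4 of 37 (10.8%), against 5.64% of all genes. They were Ccl28, Cxcl1 and Cxcl13, with positive values, and Ackr3, with a negative one. This count turned on 1 library, since without 3NC replicate 2 there were 19 of 37 (51.4%), against 6.39% of all genes, and none passed after adjustment. The median was -0.03 over the 37 genes, 18 above 0 and 19 below, and -0.02 over all genes.

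Ccl28 was higher in each knockdown library than in each 3NC library, at 6.79 ± 0.909 against 4.68 ± 0.587 CPM (SD, n = 3 each), with a log2 fold change of 0.54 (SE 0.19, adjusted p = 0.764). Ackr3, the atypical receptor that takes up Cxcl12, was at 5.82, 6.9 and 6.01 CPM in 3NC, 4.74, 5.18 and 3.98 in the knockdown group, 4.24, 4.43 and 4.08 in 5NC and 4.34, 5.13 and 6.58 in the overexpression group. The knockdown libraries were all below the 3NC libraries, with -0.43 (SE 0.19, adjusted p = 0.764). Ccl22, made by dendritic cells and macrophages and read by Ccr4 on regulatory and type 2 helper T cells, was at 9.2, 6.77 and 7.9 CPM in 3NC, 9.23, 11.1 and 9.66 in the knockdown group, 13.7, 8.09 and 10.7 in 5NC and 9.4, 11.7 and 8.41 in the overexpression group, with 0.33 (SE 0.21, adjusted p = 0.764). B and plasma cell markers, higher in all knockdown libraries, moved with Ccl28 here, and their part was not tested. Ccl28, Ackr3 and Ccl22, 8.11% of the 37, were those whose knockdown and 3NC libraries did not overlap, against 11.3% of all genes. Cxcl13 and Cxcl1 had log2 fold changes of 4.04 (SE 1.33, adjusted p = 0.764) and 2.50 (SE 0.94, adjusted p = 0.764). Both were led by knockdown replicate 1, and without that library they were 0.81 and 0.65. Knockdown replicate 1 also had the highest B and plasma cell sum.

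For several inflammatory genes the sign of this comparison depended on which of the libraries that stood apart was kept. With all libraries the log2 fold changes were -1.07 (SE 1.53, adjusted p = 0.86) for Ccl2, -1.84 (SE 1.63, adjusted p = 0.779) for Ccl7, -0.33 (SE 1.26, adjusted p = 0.954) for Ccl5, -0.51 (SE 1.27, adjusted p = 0.925) for Ccl6 and 0.82 (SE 1.07, adjusted p = 0.843) for Ccl8. Without 3NC replicate 2 they were 4.67, 4.84, 3.51, 3.89 and 3.11, all positive. Without knockdown replicate 1 they were -4.11, -4.81, -2.75, -2.38 and -1.13, all negative. The receptors Ccr1 and Ccr2, with -0.45 (SE 1.31, adjusted p = 0.936) and -0.54 (SE 1.33, adjusted p = 0.925), moved to 3.77 and 3.68 and to -2.80 and -3.14. Cxcl9 and Cxcl10, with 0.34 (SE 1.32, adjusted p = 0.953) and -1.15 (SE 1.40, adjusted p = 0.833), moved to 4.30 and 3.86 and to -2.30 and -3.39. Cx3cl1, with 1.25 (SE 0.65, adjusted p = 0.764), was -0.27 without knockdown replicate 1.

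Without both libraries, 9 of the 33 genes then tested had an unadjusted p under 0.05, against 4.27% of all genes, and none passed after adjustment. Among the 9 the values were 2.04 (SE 0.50, adjusted p = 0.904) for Ccl6, 2.11 (SE 0.62, adjusted p = 0.904) for Cxcl1, 1.66 (SE 0.57, adjusted p = 0.904) for Cxcl9, 1.43 (SE 0.63, adjusted p = 0.904) for Ccr1, 1.10 (SE 0.34, adjusted p = 0.904) for Ccl5, 1.08 (SE 0.45, adjusted p = 0.904) for Ccr2 and 0.70 for Ccl28, all positive, and -0.80 (SE 0.35, adjusted p = 0.904) for Cxcl12. In the 2 remaining libraries of each group the summed pan-leukocyte markers were at 31.6 and 22.4 CPM in 3NC and 30.2 and 34.9 CPM in the knockdown group, which overlapped. Without Cd52 they were at 22.9 and 16.7 CPM in 3NC and 27.8 and 31.5 CPM in the knockdown group, which did not. B and plasma cell markers (3.31 and 8.37 against 22.4 and 12.2 CPM), cytotoxic lymphocyte markers (1.72 and 0.608 against 3.52 and 3.44 CPM) and neutrophil markers (2.45 and 2.09 against 2.79 and 4.59 CPM) did not overlap either. T cell, macrophage and dendritic cell markers overlapped. The part of these markers in the 9 values was not tested.

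**Figure D4:**
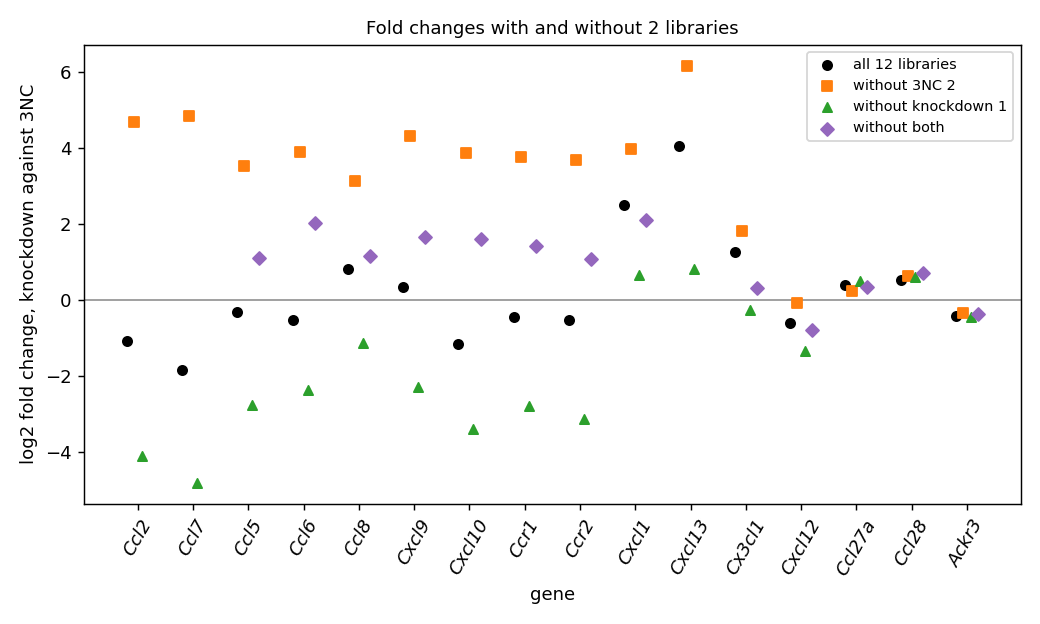
Log2 fold changes of the knockdown group against 3NC (y) for 16 genes (x), fitted with all 12 libraries, without 3NC replicate 2, without knockdown replicate 1 and without both. Ccl2, Ccl7 and Cxcl13 did not pass the filter without both and lack that point. From Ccl2 to Ccr2 the squares lie above 3 and the triangles below -1, whereas Ccl27a, Ccl28 and Ackr3 keep nearly the same value in all fits.

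The vector controls were compared as 5NC against 3NC, which shares its libraries with both comparisons above. None of the 37 genes passed by edgeR, where 0.128% of all genes did. DESeq2 called 1 of the 37, Ccl6 (-4.96, adjusted p = 0.0483), against 1.04% of all genes, and limma voom with sample quality weights called 0, against 1.15%. With an unadjusted p under 0.05 as the limit there were 10 of 37 (27%), all with negative values, against 6.55% of all genes with a negative value and 10.8% in either direction. In either direction there were 3 of 37 (8.11%) without 3NC replicate 2, against 12.3% of all genes. There were 18 of 42 (42.9%) without 3NC replicate 1 against 12.6%, 17 of 42 (40.5%) without 3NC replicate 3 against 12.4%, and 6 of 42 (14.3%) without 5NC replicate 3 against 6.94%. The median was -0.89 over the 37 genes, 7 above 0 and 30 below, and -0.02 over all genes. The fitted values were -6.26 (SE 2.23, adjusted p = 0.376) for Ccl7, -5.30 (SE 2.01, adjusted p = 0.406) for Ccl2, -4.93 (SE 1.64, adjusted p = 0.336) for Ccl6, -4.87 (SE 1.61, adjusted p = 0.334) for Ccl5, -4.12 (SE 1.61, adjusted p = 0.41) for Ccr1 and -3.97 (SE 1.58, adjusted p = 0.418) for Ccr2. Each of these was led by 3NC replicate 2. Without that library Ccl7, Ccl2, Ccr1 and Ccr2 were 0.43, 0.44, 0.11 and 0.25, and Ccl5 and Ccl6 were -1.03 and -0.52.

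Ackr3, Ccl5 and Ccr7, the receptor that brings lymphocytes and dendritic cells into lymph nodes, were the genes whose 5NC libraries were all below the 3NC libraries, 3 of 37 (8.11%), against 6.19% of all genes. For Ackr3 the log2 fold change was -0.55 (SE 0.19, adjusted p = 0.339), and -0.48 (SE 0.20, adjusted p = 0.304) without both libraries that stood apart. Cxcl10 was -2.01 (SE 1.45, adjusted p = 0.652) with all libraries and 2.99 (SE 0.68, adjusted p = 0.0844) without both. Ccl28 was -0.24 (SE 0.20, adjusted p = 0.692).

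The difference between the knockdown and the overexpression effect was tested in the same fit. None of the 37 genes passed by edgeR, DESeq2 or limma voom with sample quality weights, which called 0.0244%, 0.256% and 0.0976% of all genes. By edgeR, 2 (5.41%) had an unadjusted p under 0.05, against 4.63% of all genes. There were 11 of 37 (29.7%) without 3NC replicate 2, against 8.12%, 4 of 38 (10.5%) without knockdown replicate 1, against 4.63%, and 7 of 33 (21.2%) without both, against 6.71%. Ccl28 had a difference of -1.13 (SE 0.27, adjusted p = 0.496), the knockdown effect being the smaller. Ackr3 had -0.76 (SE 0.26, adjusted p = 1), with an effect of -0.43 in the knockdown and 0.33 in the overexpression comparison. So the effects on Ccl28 and Ackr3 were not shown to differ after adjustment.

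Of the homeostatic pairs, Cxcl12 and its receptor Cxcr4 were present in every library. Cxcl12 was at 31.8, 52.6 and 13.4 CPM in 3NC, 38.4, 14.1 and 11.9 in the knockdown group, 25, 24.6 and 22.3 in 5NC and 16.1, 22.8 and 29.2 in the overexpression group, with -0.60 (SE 0.49, adjusted p = 0.77) against 3NC and -0.08 (SE 0.49, adjusted p = 0.972) against 5NC. It was highest in the libraries that stood apart, and 3NC replicate 3 and knockdown replicates 2 and 3 were its 3 lowest. Summed Leydig markers were also lowest in those 3 libraries, at 949 to 1181 CPM against 1294 CPM or more elsewhere, and their part was not tested. Cxcr4 varied little, at 3.57, 3.67 and 2.9 CPM in 3NC, 4.68, 3.66 and 3.78 in the knockdown group, 3.74, 2.32 and 3.36 in 5NC and 4.27, 3.2 and 2.38 in the overexpression group, with 0.26 (SE 0.25, adjusted p = 0.792) and 0.07 (SE 0.26, adjusted p = 0.958).

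Ccl17 and Ccl22 share the receptor Ccr4. Ccl17 was at 3.38, 2.24 and 3.24 CPM in 3NC, 1.64, 2.86 and 3.11 in the knockdown group, 1.81, 1.13 and 2.29 in 5NC and 2.7, 3.6 and 1.35 in the overexpression group, with -0.76 (SE 0.39, adjusted p = 0.503) between the vector controls. Ccr4 was at 2.05, 2.67 and 3.44 CPM in 3NC, 2.97, 2.79 and 3.17 in the knockdown group, 2.5, 1.27 and 1.5 in 5NC and 3.16, 2.73 and 1.75 in the overexpression group, with 0.53 (SE 0.31, adjusted p = 0.547) against 5NC. limma voom with sample quality weights, which gave 3NC replicate 2 a weight of 0.255 and 5NC replicate 3 one of 5.97, called Ccr4, Ccl27a, Ccl28, Cxcl10 and Cxcr5 in the overexpression comparison, 5 of 37, but also 29.3% of all genes. Neither Ccl17 nor Ccl22 nor Ccr4 was above the other 10 libraries in 3NC replicate 2 and knockdown replicate 1.

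Ccr6, the receptor of Ccl20 on B cells and type 17 T cells, was at 2.51, 2.11 and 3.38 CPM in 3NC, 3.67, 3.12 and 2.84 in the knockdown group, 2.99, 3.31 and 2.79 in 5NC and 3.02, 3.33 and 2.06 in the overexpression group. Its log2 fold changes were 0.27 (SE 0.24, adjusted p = 0.78) and -0.11 (SE 0.24, adjusted p = 0.92) in the knockdown and overexpression comparisons, and Ccl20 itself had 1 read in all. Cxcr5, the B cell receptor for Cxcl13, was at 1.72, 1.86 and 1.01 CPM in 3NC, 1.9, 1.86 and 1.89 in the knockdown group, 1.25, 0.422 and 0.787 in 5NC and 1.45, 1.4 and 0.714 in the overexpression group, with -0.89 (SE 0.40, adjusted p = 0.463) between the vector controls. Cxcr2, the main neutrophil receptor for Cxcl1, was at 0.776, 1.19 and 0.75 CPM in 3NC, 0.897, 1.19 and 0.787 in the knockdown group, 0.548, 0.933 and 0.782 in 5NC and 1.11, 1.15 and 0.873 in the overexpression group, with 0.47 (SE 0.32, adjusted p = 0.617) against 5NC. Ackr4, an atypical receptor that takes up Ccl21 and Ccl25, was at 0.397, 1.18 and 0.54 CPM in 3NC, 0.569, 0.199 and 0.203 in the knockdown group, 0.437, 0.704 and 0.644 in 5NC and 0.723, 0.533 and 1.03 in the overexpression group, with -1.10 (SE 0.54, adjusted p = 0.764) against 3NC. These 4 receptors were thus at 3.67 CPM or less in every library, and for none of them were 3NC replicate 2 and knockdown replicate 1 both above the other 10. Ackr4 lies within the bounds of Acad11, and Cxcr5 meets the end of Bcl9l, so part of their reads cannot be told apart from those genes.

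The 20 genes not tested included Ccl3 and Ccl4, which activated macrophages and T cells secrete. Ccl3 reached 9.01 and 2.4 CPM and Ccl4 11 and 3.03 CPM in 3NC replicate 2 and knockdown replicate 1, and neither exceeded 0.665 CPM elsewhere. They were left out because too few libraries reached the filter's level. The bounds of Ccl3 and Ccl4 overlap in the annotation, so their reads cannot be told apart with certainty. The neutrophil attractants Cxcl2 and Cxcl3 were nearly confined to 3NC replicate 2, with 31 of 36 and 62 of 67 reads, and Cxcl5 reached 2.97 CPM in knockdown replicate 1 and 1.3 in 3NC replicate 2. Ccr8 was at 0 in every library, which at 12719699 to 15771655 reads allows up to 3 reads per library. Ackr1, Ccl11, Ccl20, Ccl21b, Ccr3, Ccr9, Ccr10, Cxcl15, Cxcl17 and Cxcr1 had 1 to 30 reads each in all, and Ccl1, Xcl1 and Ackr2 had 44, 40 and 75 reads.

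The remaining tested genes were Ccl12, Ccl9, Cxcl14, Cxcl16, Cxcr6 and Xcr1, described with the libraries that stood apart, and Ccl21a, Ccl24, Ccr7 and Ccrl2. Ccl21a, which guides cells into lymph nodes through Ccr7, was at 0, 5.17 and 2.19 CPM in 3NC, 5.06, 2.9 and 2.56 in the knockdown group, 3.35, 3.51 and 2.95 in 5NC and 5.09, 2.79 and 6.92 in the overexpression group. Ccr7 was at 0.993, 1.37 and 0.743 CPM in 3NC, 0.885, 0.731 and 0.473 in the knockdown group, 0.686, 0.141 and 0.716 in 5NC and 0.46, 0.666 and 1.67 in the overexpression group. Ccl24, an eosinophil attractant, was at 0.132 to 1.18 CPM, and Ccrl2, which binds chemerin without signalling, at 1.01 to 3.49 CPM in 10 libraries and 5.22 and 2.53 in 3NC replicate 2 and knockdown replicate 1. None of these genes passed in any of the 4 comparisons, the smallest adjusted p being 0.348 between the vector controls.

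Of the other genes of the pathway, none passed in any of the 4 comparisons. In chemokine receptor signalling (G-protein subunits, receptor kinases, arrestins and the migration machinery), 33 of 34 genes were tested, and 1, 4, 8 and 2 had an unadjusted p under 0.05 in the knockdown, overexpression, vector control and difference comparisons, where 5.64%, 11.9%, 10.8% and 4.63% of all genes did. Arrb1, an arrestin that ends receptor signalling, had the smallest p of the list against 5NC, with 23.1, 21.4 and 19.7 CPM in 5NC and 32.7, 26.1 and 31.3 in the overexpression group and 0.49 (SE 0.12, adjusted p = 0.13). Elmo1, which couples receptors to Rac in migrating cells, led the list between the vector controls with -0.39 (SE 0.10, adjusted p = 0.252). The summed level of this list was 1433 and 1382 CPM in the libraries that stood apart, against 979 to 1031 CPM elsewhere.

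Of the inducers of chemokine genes (cytokines, NF-kB subunits and Irf1 among them), 10 of 15 were tested, and 0, 0, 1 and 0 had an unadjusted p under 0.05 in the same order, against the same shares of all genes. Their summed level was 296 and 293 CPM against 61.6 to 171. Irf1, an interferon-induced transcription factor, was at 8.67, 24.1 and 16.3 CPM in 5NC and 4.14, 4.06 and 3.25 in the overexpression group, groups that did not overlap, with -2.09 (SE 1.14, adjusted p = 0.507). It was at 3.57, 62.3 and 3.17 CPM in 3NC and 58.9, 5.72 and 11.4 in the knockdown group. Of 6 enzymes that trim or shed chemokines, 5 were tested and none had an unadjusted p under 0.05 in any comparison. Of 6 further genes of the system, 5 were tested. Cmklr1, a chemerin receptor, was at 25.7, 19.1 and 20.1 CPM in 5NC and 33.6, 32.4 and 28.7 in the overexpression group, with 0.54 (SE 0.12, adjusted p = 0.092). Pf4, a platelet chemokine, was at 0.927, 3.04 and 1.62 CPM in 3NC and 0.569, 0.399 and 0.54 in the knockdown group, with -1.88 (SE 0.44, adjusted p = 0.764). In both cases the named groups did not overlap.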

How the data were processed

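RNA-seq was performed on F1 mouse testes in 4 groups of 3 libraries, taken from the sample titles. Per the methods, the authors enriched messenger RNA with oligo(dT) beads (the labels name total RNA) and used SOAPaligner against mouse genes. Build mm10 comes from the labels. No source used here gives the strand setting of the counting. The deposited values are unscaled estimated counts for each gene, fractional in at least 1 library for 17.3% of genes, and FPKM values computed by the authors, which their methods call RPKM. The table's 18 per-sample columns of other groups were not used. Gene IDs were matched to RefSeq for symbols and coordinates (57 of 57 genes described, 20630 of 20788 in all).

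Estimated counts were rounded to whole numbers and filtered with edgeR's filterByExpr, which kept 16388 genes. Library sizes were scaled by TMM. A single fit of all 12 libraries had 1 coefficient for each group, and edgeR 4.0.16 in R 4.3.3 gave quasi-likelihood tests, adjusted over all genes tested by the Benjamini-Hochberg method (threshold 0.05). The biological coefficient of variation was 22.9%. The standard error is the log2 fold change divided by the root of its F statistic. The study's DEGseq test has no term for the spread between libraries and was not used. Libraries held 12719699 to 15771655 estimated reads, which leaves genes of few reads imprecise. Intervals on ratios of 2 libraries are exact binomial ones and cover counting error only. Alternatives were RLE size factors, no filter, a replicate block, DESeq2 1.42.0, limma 3.58.1 voom with sample quality weights, a fit of just the groups compared, leaving out each library in turn, and 3NC replicate 2 and knockdown replicate 1 left out together. Scripts were tested on simulated data.

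Genes were given in full where they passed the test, were among the 8 highest by mean FPKM, among the 3 with the smallest p per direction and comparison, among the 6 with the highest ratio of the highest to the median library, or were receptors or ligands of these. A gene that the rule covers is not reported here. Of the other lists, the 2 genes with the smallest p per comparison could be named. The genes described, the lists and the libraries left out together were chosen with earlier results of these data known. No pair of libraries of a group agreed within sampling noise (lowest chi-square per degree of freedom 3.55).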

Additional observations from a re-analysis of the deposited data

How the results depend on the processing

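Over the alternatives, 1474 fold changes kept their direction and their side of the threshold, 6 came to pass, 1 no longer passed and 88 turned direction, of which 50 with a single library left out and none with a value that passed. The cause was not tested. The settings with both 3NC replicate 2 and knockdown replicate 1 left out turned the knockdown against 3NC values of Ccl25 (0.062), Ccl5 (1.10), Ccl6 (2.04), Ccr1 (1.43), Ccr2 (1.08) and Cxcl10 (1.61), and the 5NC against 3NC values of Ackr4 (0.33), Ccl8 (0.090), Ccl27a (-0.043), Ccl27b (-0.052), Ccr1 (0.10), Ccr2 (0.25), Cxcl1 (0.21), Cxcl10 (2.99), Cxcl12 (0.081) and Cxcl9 (1.40). limma voom with sample quality weights turned the knockdown against 3NC values of Ccl2 (0.67), Ccl5 (0.52), Ccl6 (1.13), Ccl7 (0.98), Ccr1 (0.73), Ccr2 (0.42) and Cxcl10 (0.60), and the 5NC against 3NC values of Ackr4 (0.32), Ccl27a (-0.15), Cxcl10 (1.60) and Cxcl9 (0.59), and the overexpression against 5NC values of Ackr4 (-0.0055), Ccl22 (0.0029), Ccr1 (-0.20) and Ccr6 (0.090). The replicate block turned the knockdown against 3NC values of Ccl2 (0.083), Ccl5 (0.13), Ccl6 (0.23), Ccr1 (0.16), Ccr2 (0.11) and Cxcl10 (0.23) and the overexpression against 5NC value of Ccl8 (-0.14). With each library left out in turn, the knockdown against 3NC values ran from -4.11 to 4.67 for Ccl2, -0.20 to 0.019 for Ccl25, -2.75 to 3.51 for Ccl5, -2.38 to 3.89 for Ccl6, -4.81 to 4.84 for Ccl7, -1.13 to 3.11 for Ccl8, -2.80 to 3.77 for Ccr1, -3.14 to 3.68 for Ccr2, -0.27 to 1.82 for Cx3cl1, -3.39 to 3.86 for Cxcl10 and -2.30 to 4.30 for Cxcl9, and except for Ccl25 the highest was without 3NC replicate 2 and the lowest without knockdown replicate 1. In the same comparison they ran from -0.39 to 0.016 for Ccl17, -0.032 to 0.35 for Ccr4 and -0.10 to 0.32 for Cxcr2. The overexpression against 5NC values ran from -0.32 to 0.061 for Ccl22, -0.43 to 0.51 for Ccl8, -0.24 to 0.077 for Ccr6, -0.052 to 0.085 for Cx3cl1, -0.51 to 0.37 for Cxcl1, -0.29 to 0.12 for Cxcl12 and -0.17 to 0.26 for Cxcr4. The 5NC against 3NC values ran from -0.53 to 0.33 for Ackr4, -5.86 to 0.44 for Ccl2, -0.070 to 0.32 for Ccl27a, -7.41 to 0.43 for Ccl7, -2.71 to 0.089 for Ccl8, -4.88 to 0.11 for Ccr1, -4.52 to 0.25 for Ccr2, -1.73 to 0.20 for Cxcl1, -2.73 to 2.99 for Cxcl10, -0.80 to 0.081 for Cxcl12 and -3.16 to 1.40 for Cxcl9, and except for Ccl27a the highest was without 3NC replicate 2. In the same comparison they ran from -0.11 to 1.18 for Ccl27b and -0.26 to 0.065 for Cxcr4. The difference of effects in Cx3cl1 ran from -0.30 to 1.79. Of all genes, 0 passed in the knockdown against 3NC comparison, 16 by DESeq2, and 0 to 12 with a library left out (12 without 3NC replicate 3, 2 without knockdown replicate 3 and 1 without overexpression replicate 1). In the overexpression against 5NC comparison 51 passed (34 higher and 17 lower), against 21 with the replicate block, 328 by DESeq2, 4802 by voom, 107 with only the libraries compared, 159 without both libraries and 9 to 87 with a library left out (78 and 87 without 3NC replicates 2 and 3, 31 without knockdown replicate 2, 9 without each of 5NC replicates 2 and 3, and 21, 14 and 26 without overexpression replicates 1, 2 and 3). Of the chemokine and receptor genes 1 passed there, 5 by voom, 2 without both libraries and 0 to 1 with a library left out (0 without 5NC replicate 2). In the 5NC against 3NC comparison 21 genes passed, against 5 with the replicate block, 171 by DESeq2, 188 by voom, 7 with only the libraries compared, 45 without both libraries and 3 to 35 with a library left out (13 and 35 without 3NC replicates 1 and 2, 4, 4 and 3 without 5NC replicates 1, 2 and 3, and 12 without overexpression replicate 2), and 1 chemokine gene, Ccl6, passed by DESeq2. For the difference of effects 4 genes passed, 2 with the replicate block, 42 by DESeq2, 16 by voom and 2 to 10 with a library left out (10 without 3NC replicate 3 and 2 without 5NC replicate 2). Whether replicate numbers in the titles pair the samples was not settled. Deviations from group means correlated at -0.64 to 0.39 between libraries of the same number (18 pairs) and at -0.58 to 0.77 otherwise (36 pairs). The values -0.64, -0.58 and 0.77 came from pairs holding 3NC replicate 2 or knockdown replicate 1, which stood apart, so these correlations cannot decide it. The replicate block changed the call of no chemokine or receptor gene. For the difference of effects, which needs all 4 groups, a fit with only the libraries compared could not be made. Of the 20 genes that were not tested, those with reads mainly in 3NC replicate 2 and knockdown replicate 1 included Ccl3, Ccl4, Cxcr3 and Cxcl5. Cxcl2 and Cxcl3 had theirs mainly in 3NC replicate 2.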
